A study of Mus musculus with 3 samples.

Results

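Mitosis and spindle genes are 40 genes that carry a cell through division: cyclins and their kinase, other mitotic kinases, the spindle checkpoint and the machinery of chromosome separation, kinesin motors, spindle and cytokinesis proteins, and proteins that shape chromosomes. They were found in the tag tables by the description of a UniGene cluster (a group of transcripts of 1 gene) or by exact match of the cluster's tags to reference transcripts. Of the 40 genes, 38 had a cluster among the 20595 listed, and 33 had the 15 or more tags over all libraries needed to enter the tests, which covered 13812 clusters. Ccnb2, a B-type cyclin, and Ndc80, which ties microtubules to kinetochores, had none.

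The skins came from C57BL/6 males of 2 months that had been depilated 9 days before, which starts follicle growth. There was 1 library of whole skin in each group: untreated skin (day 0), and skin at day 1 and at day 2 after cyclophosphamide, an alkylating drug given into the peritoneum at 150 mg/kg by the design text (per km in the labels). The treated skins were also 1 and 2 days further into hair growth, with no untreated skin of those days, so drug and time cannot be told apart. How many mice each library pools was not given in the sources used here.

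In mitosis, cyclin B bound to Cdk1 starts chromosome condensation and spindle assembly, and the checkpoint holds the anaphase-promoting complex until every kinetochore is attached. Ubiquitin-mediated loss of cyclin B and securin then lets the chromosomes part and the cell divide. In growing hair follicles, divisions are concentrated in the matrix at the base of the bulb, while the epidermis divides in its basal layer.

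A library counts transcripts through tags of 21 bases, the CATG cut by NlaIII and the 17 bases after it. The tags below carried most of the counts of the members with the clearest values, and the last pair shows a gene split over 2 sites. Capitals mark the cut site, and the other letters identify the transcript.
Cdk1: CATGtaaatattattccatat
Ube2c: CATGacatctggtgacaaagg
Ccnb1: CATGcatatactcccaaggag
Mki67: CATGaggaagatcaccaggga
Cdc20: CATGgccaaggtggctgagct
Plk1: CATGtctgggtgtgggtttac
Nusap1: CATGtatttgccatctgtcat
Anln: CATGgcttcagtttttaaata
Aurkb site 1: CATGtttttgaaaaaaaaaaa
Aurkb site 2: CATGgtatagcctagtctgtc

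On GRCm38 with GENCODE M21 transcripts, the Cdk1 tag lies in the 3′ UTR in exon 8 of 8, on chromosome 10 (69338333 to 69338353, minus strand), 3187 bases before the end of the longest annotated transcript. The Anln tag lies in the 3′ UTR in exon 24 of 24, on chromosome 9 (22332170 to 22332190, minus strand), and the Nusap1 tag in the 3′ UTR in exon 10 of 10, on chromosome 2 (119649453 to 119649473, plus strand). The Ccnb1 tag is in the 3′ UTR in exon 9 of 9, on chromosome 13 (100779106 to 100779126, minus strand), and the Ube2c tag is coding and crosses an intron from exon 2, on chromosome 2 (164770391 to 164771309, plus strand). The Plk1 tag (chromosome 7, 122169744 to 122169764, plus strand) and the Mki67 tag (chromosome 7, 135689867 to 135689887, minus strand) are in the 3′ UTR of the last exon. The Cdc20 tag (chromosome 4, 118433486 to 118433506, minus strand) is coding, in exon 9 of 10, and also occurs in the pseudogene Gm7856, from which it cannot be told apart. The Aurkb tag of site 2 is in the 3′ UTR on chromosome 11 (69051577 to 69051597, plus strand), while the tag of site 1 ends in a run of A and matches no annotated transcript exactly.

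Libraries held 2731787, 2859653 and 2636804 tags at days 0, 1 and 2. Levels are tags per 1e+06 after TMM scaling (CPM), and ratios are log2 with a pseudocount of 0.5 tags. A gene rose or fell, here, when an exact conditional binomial test of 2 libraries, adjusted over all clusters tested, gave an adjusted p up to 0.001 and at least a 2-fold change. The test compares 2 libraries, not conditions, and has no replicate check. The 95% intervals cover counting error only, and PCR copies are not separate molecules.

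Taken as a group and with TMM scaling, the mitosis genes were at similar summed levels on all days. Their summed level was 1579 CPM at day 0, 1558 CPM at day 1 and 1653 CPM at day 2. The log2 ratio of the sums was -0.02 (-0.08 to 0.04) for day 1 over day 0, 0.07 (0.01 to 0.13) for day 2 over day 0 and 0.08 (0.02 to 0.15) for day 2 over day 1. Scaled to tags assigned to a gene, which moves all genes alike, the first ratio was -0.15 (-0.21 to -0.09) and the last 0.22. With all kept tags the first was -0.09 (-0.15 to -0.03) and the last 0.20 (0.14 to 0.26). Cdk1 and Ube2c, the members with most tags, weigh most in these sums. In whole skin, fewer cells of a type and less RNA per cell cannot be told apart.

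Few single members passed the test. Between day 1 and day 0, 0 of the 33 tested members rose or fell, against 2.79% of all clusters called. Between day 2 and day 0 it was 1 of 33, Anln, which rose, against 6.44% of all clusters, and between day 2 and day 1 it was 0 of 33, against 2.90%. Most ratios were within 1.5-fold: 27 of 33 for day 1 over day 0, 25 for day 2 over day 0 and 29 for day 2 over day 1.

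The smaller differences went both ways, and with TMM scaling the interval of every median over members spanned 0. For day 1 over day 0 the median member ratio was -0.18 (-0.30 to 0.09 over members), against -0.02 over all clusters, and 20 of 33 ratios were negative. The counting interval lay below 0 for 7 members (21.2%), against 15.5% of all clusters, and above 0 for 4 members (12.1%), against 15.3%. Set against day 0, the day 2 median was 0.01 (-0.23 to 0.21), against 0.01 over all clusters, with 5 intervals above 0 (15.2%, against 17.6%) and 4 below (12.1%, against 18.7%). Set against day 1, it was 0.05 (-0.07 to 0.37), against -0.02, with 8 intervals above 0 (24.2%, against 14.0%) and 1 below (3.03%, against 15.3%). The members were counted more deeply than most clusters, with a median of 282 tags over the libraries against 136, which narrows their intervals. These splits depended on the CATG site counted. With the main site alone, 5 intervals lay above 0 and 5 below for day 1 over day 0, and with the 3′-most site, where 23 members were tested, 4 above and 2 below. For day 2 over day 1 the 3′-most site gave 3 above and 2 below. Scaled to tags assigned to a gene, the members' median was -0.31 for day 1 over day 0 and 0.18 for day 2 over day 1. Neither interval over members then spanned 0, but the medians of all clusters moved too, to -0.15 and 0.12. Both treated days share the day 0 library, and both comparisons with day 1 share the day 1 library.

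**Figure D1:**
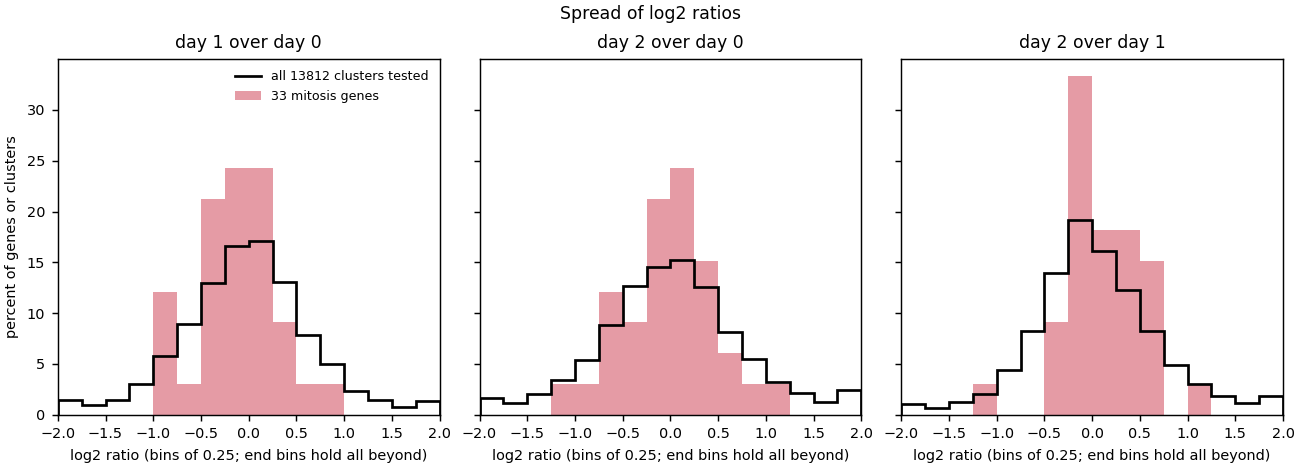
Log2 ratios of the 33 tested mitosis genes (red bars, percent of members) and of all 13812 clusters tested (black line, percent of clusters) in 3 comparisons, in bins of 0.25; the end bins also hold all values beyond 2 either way. The members gather near 0, with no ratio beyond 1.16 either way.

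The cyclins and their kinase summed to higher levels at day 2 than at day 0, and at day 1 in a way that depended on the scaling. The sum was 414 CPM at day 0, 460 CPM at day 1 and 461 CPM at day 2, a log2 ratio of 0.15 (0.04 to 0.27) for day 1 over day 0 and 0.16 (0.04 to 0.27) for day 2 over day 0. The day 1 ratio was 0.08 (-0.04 to 0.20) scaled to all kept tags and 0.02 (-0.09 to 0.14) scaled to tags assigned to a gene. Cdk1, the kinase that drives entry into mitosis, gave 508, 624 and 603 tags at days 0, 1 and 2. Both treated libraries were above day 0, by 0.36 (0.19 to 0.53, adjusted p = 0.00031) at day 1 and by 0.29 (0.12 to 0.47, adjusted p = 0.0041) at day 2 in the exact test, short of the 2-fold minimum. Ccnb1, the cyclin B1 partner of Cdk1, gave 275, 301 and 322 tags, with a ratio of 0.27 (0.04 to 0.51, exact test adjusted p = 0.073) at day 2 over day 0. Ccna2, cyclin A2, which acts in S phase and early mitosis, was instead lowest at day 1, with 381, 312 and 331 tags and a ratio of -0.22 (-0.44 to -0.00, exact test adjusted p = 0.15) for day 1 over day 0.

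**Figure D2:**
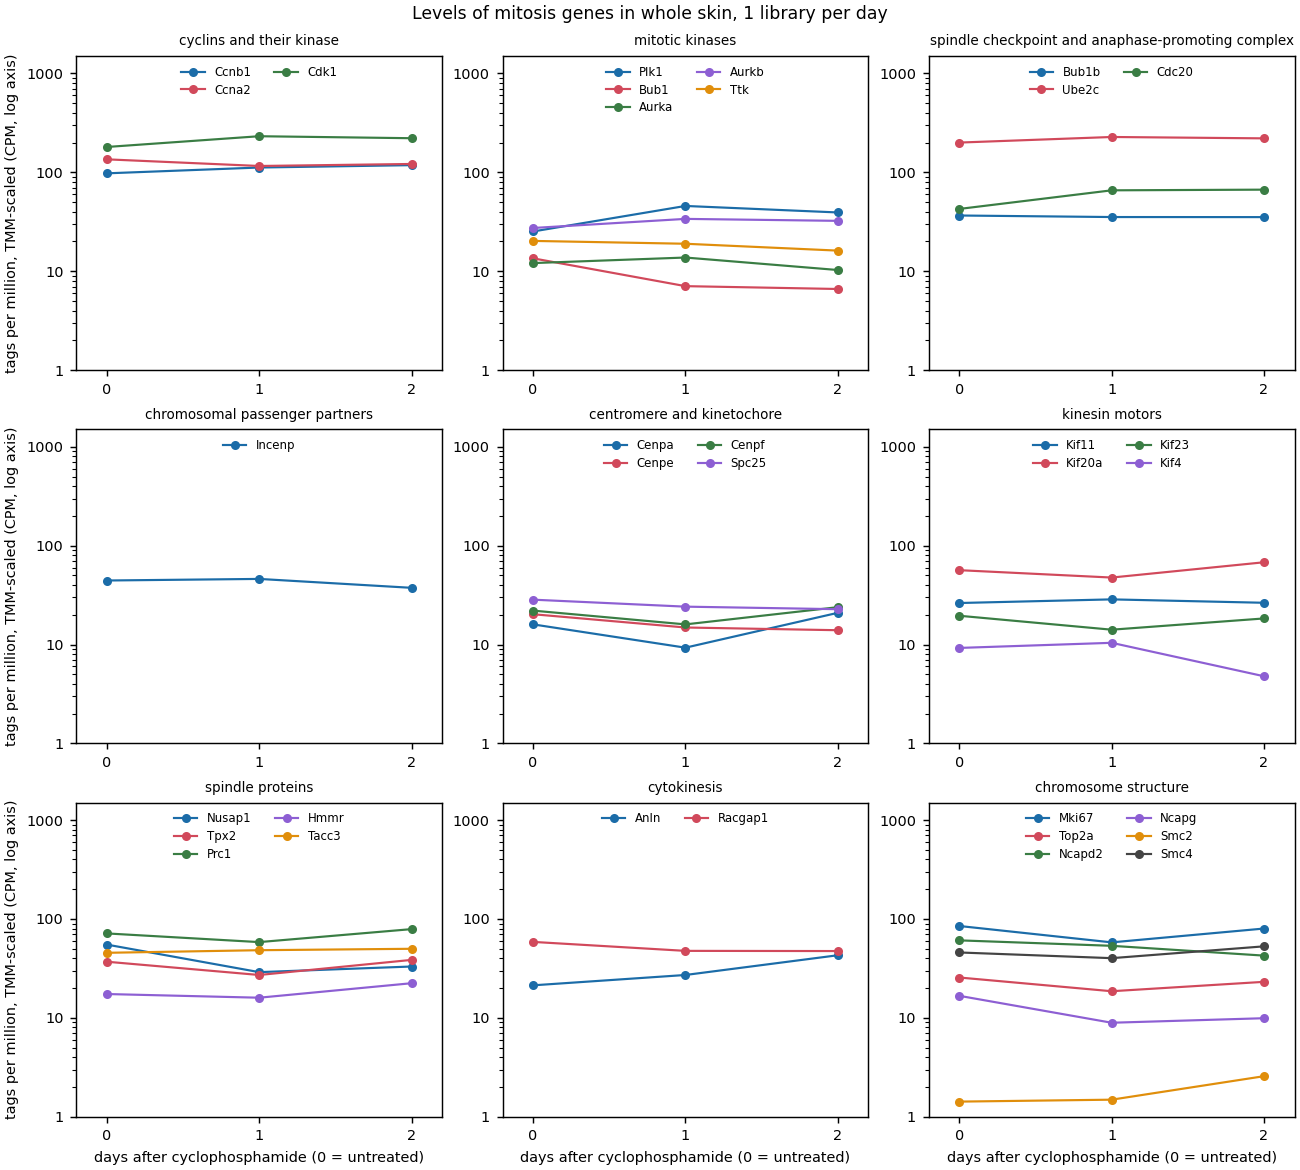
Levels of the 33 tested members in CPM (log axis) at days 0, 1 and 2, in 9 panels by role; each point is 1 library. Most lines are near flat; Plk1 and Cdc20 are higher in both treated libraries, and Nusap1, Ncapg and Bub1 lower.

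Mitotic kinases were at 98.5 CPM in sum at day 0, 119 CPM at day 1 and 105 CPM at day 2. The members did not move alike. Plk1, which drives centrosome maturation and mitotic entry, gave 71, 123 and 107 tags at days 0, 1 and 2. Both treated libraries lay above day 0, with a ratio of 0.85 (0.42 to 1.30, exact test adjusted p = 0.00063) at day 1 and 0.64 (0.19 to 1.09, adjusted p = 0.019) at day 2. Bub1, a checkpoint kinase at kinetochores, gave 38, 19 and 18 tags, with ratios of -0.92 (-1.81 to -0.10, exact test adjusted p = 0.098) and -1.01 (-1.93 to -0.19, adjusted p = 0.052) over day 0. Ttk, also a checkpoint kinase, gave 57, 51 and 44 tags, and Aurka, the kinase of spindle poles, gave 34, 37 and 28 tags. Their intervals all spanned 0.

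Aurkb, the kinase of the chromosomal passenger complex, gave 77, 91 and 88 tags at days 0, 1 and 2. Its 2 CATG sites, whose tags are printed above, went apart. Site 1, nearest the 3′ end, had 42, 61 and 64 tags, a ratio of 0.65 (0.07 to 1.25) for day 2 over day 0. Site 2 had 35, 28 and 18 tags, a ratio of -0.89 (-1.82 to -0.05). The sum over sites shows neither. Site 1 held 65.2% of the Aurkb tags, but its main tag matched no annotated transcript exactly, and the cluster was named by description. Its partner Incenp, the scaffold of that complex, gave 125, 124 and 102 tags, and every interval spanned 0. Cdca8 and Birc5, the other partners, had 3 and 4 tags at most in any library and were not tested.

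The checkpoint and the anaphase-promoting complex were carried by Ube2c and Cdc20. Ube2c, the enzyme that hands ubiquitin to the substrates of the complex, gave 563, 613 and 601 tags at days 0, 1 and 2, with a ratio of 0.19 (0.02 to 0.36, exact test adjusted p = 0.1) for day 1 over day 0. Cdc20, which activates the complex, gave 120, 177 and 182 tags, and both treated libraries were higher. The ratios were 0.62 (0.28 to 0.97, exact test adjusted p = 0.0022) at day 1 and 0.65 (0.31 to 0.99, adjusted p = 0.00094) at day 2 over day 0. Bub1b, a checkpoint protein that binds Cdc20, gave 103, 95 and 96 tags, and Mad2l1, another, was listed with 5, 3 and 2 tags. The sums for this group were 281, 330 and 324 CPM.

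Genes of the centromere and kinetochore summed to 86.7 CPM at day 0, 64.3 CPM at day 1 and 81.5 CPM at day 2. The ratio of the sums was -0.43 (-0.72 to -0.14) for day 1 over day 0, and all 4 tested members had negative ratios there. Cenpa, the histone H3 variant that marks centromeres, gave 45, 25 and 57 tags. It lay below day 0 at day 1, at -0.77 (-1.55 to -0.05, exact test adjusted p = 0.13), and above day 1 at day 2, at 1.16 (0.47 to 1.91, adjusted p = 0.0053). With the tags of its 2 other clusters added, the first interval spanned 0, at -0.48 (-1.12 to 0.15). Cenpf, a kinetochore and spindle-matrix protein, gave 62, 43 and 65 tags, with a ratio of 0.57 (0.00 to 1.17, exact test adjusted p = 0.17) for day 2 over day 1. Cenpe, the kinetochore-bound kinesin, gave 57, 40 and 38 tags and Spc25, a subunit of the Ndc80 complex, gave 80, 65 and 62 tags.

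**Figure D3:**
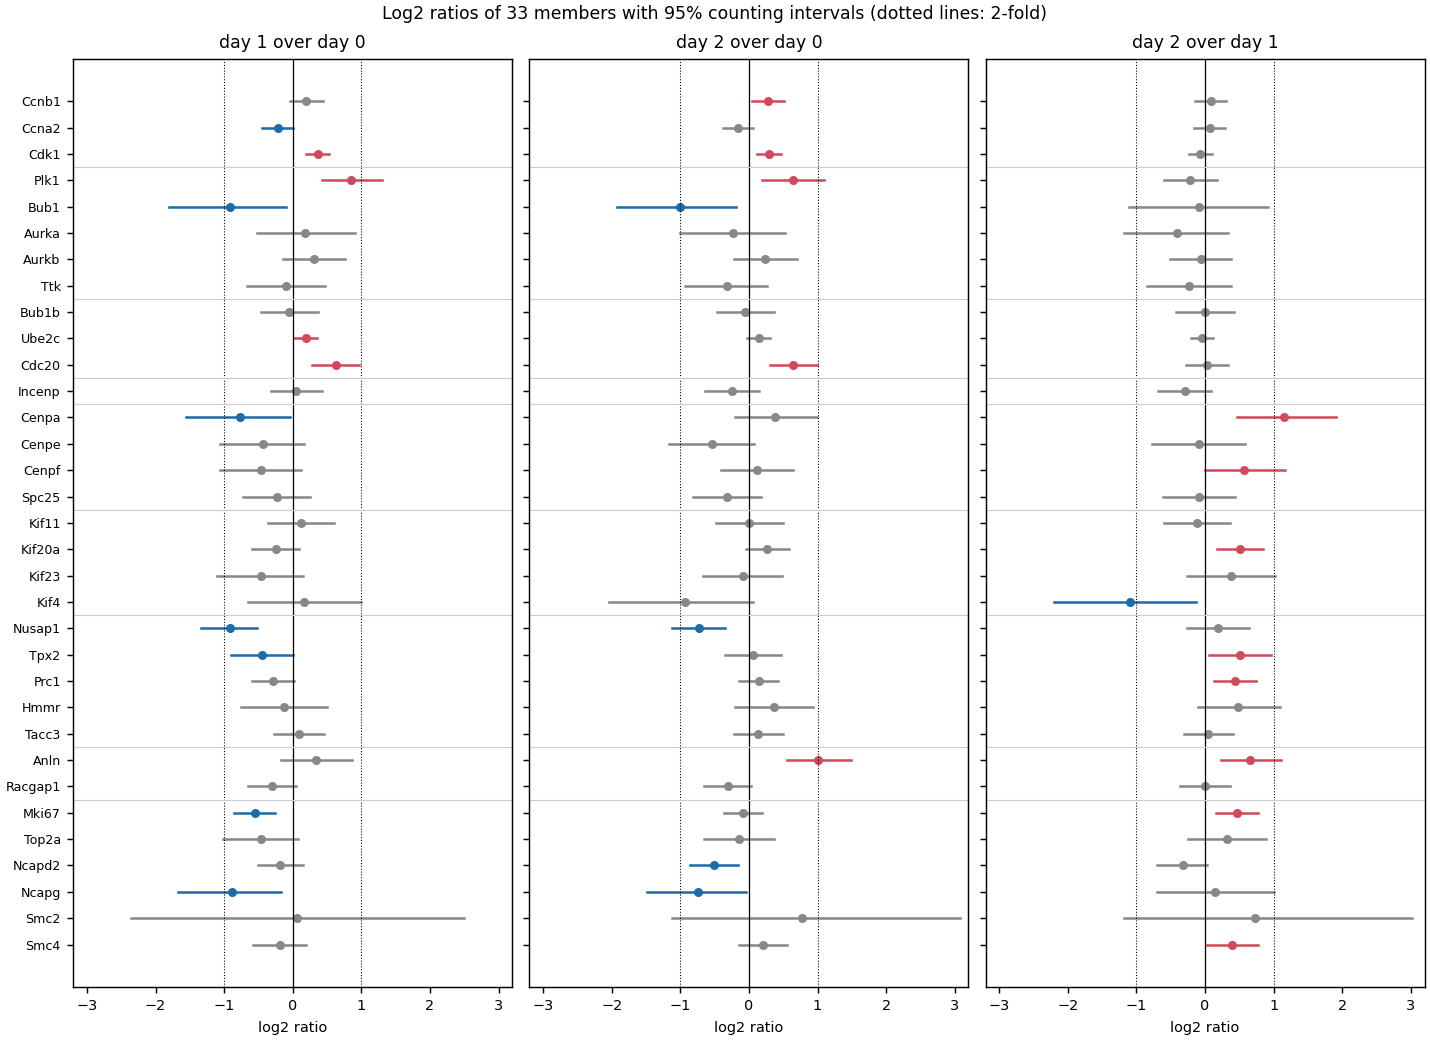
Log2 ratios (points) with 95% counting intervals (lines) of the 33 tested members, by role from top to bottom, in 3 comparisons; red lies above 0, blue below 0, grey spans 0, and dotted lines mark 2-fold. Plk1, Cdc20 and Cdk1 are red and Nusap1, Bub1 and Ncapg blue against day 0 on both treated days.

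Kinesin motors gave sums of 112, 102 and 118 CPM at days 0, 1 and 2. Kif20a, a kinesin of the central spindle, gave 159, 128 and 185 tags, with a ratio of 0.51 (0.18 to 0.85, exact test adjusted p = 0.014) for day 2 over day 1. Kif4, a chromosome-bound kinesin, gave 26, 28 and 13 tags, the 1 member whose interval lay below 0 for day 2 over day 1, at -1.10 (-2.20 to -0.13, adjusted p = 0.1). Kif11, which pushes spindle poles apart, gave 74, 77 and 72 tags, though its main tag also occurs in Gm15697. Kif23, the kinesin of the midbody, gave 55, 38 and 50 tags. Kif2c, which takes microtubules apart at centromeres, was listed at day 1 alone, with 2 tags.

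Spindle proteins were lowest at day 1, with sums of 226, 179 and 223 CPM. The ratio was -0.34 (-0.51 to -0.17) for day 1 over day 0 and 0.32 (0.14 to 0.49) for day 2 over day 1, where all 5 ratios were positive. Nusap1, which bundles spindle microtubules, gave 155, 78 and 90 tags. Both treated libraries were lower, at -0.92 (-1.34 to -0.52, exact test adjusted p = 3.6e-05) at day 1 and -0.73 (-1.13 to -0.35, adjusted p = 0.00079) at day 2 over day 0, neither reaching 2-fold. Scaled to tags assigned to a gene, the day 1 ratio was -1.05 and Nusap1 was called lower.

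Tpx2, an activator of Aurka at the spindle, gave 104, 73 and 105 tags, with a ratio of -0.44 (-0.90 to -0.00, exact test adjusted p = 0.16) for day 1 over day 0 and 0.50 (0.06 to 0.96, adjusted p = 0.1) for day 2 over day 1. Prc1, which bundles the central spindle, gave 201, 157 and 215 tags, with 0.43 (0.13 to 0.74, exact test adjusted p = 0.026) for day 2 over day 1. Both were thus lowest in the day 1 library. Hmmr, a spindle-pole protein, gave 49, 43 and 61 tags, and Tacc3, which stabilises spindle fibres, gave 128, 130 and 136 tags, all with intervals that spanned 0.

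Anln was the 1 member that rose. It encodes anillin, the scaffold of the contractile ring, and stood at 21.3, 27.1 and 43.0 CPM at days 0, 1 and 2, from 60, 73 and 117 tags. For day 2 over day 0 the ratio was 1.00 (0.55 to 1.48, exact test adjusted p = 7.2e-05), just past the 2-fold minimum. It was not called with a pseudocount of 2 tags (0.99) or by edgeR with an assumed coefficient of variation of 0.2 between animals, at an adjusted p of 0.05 and with no fold minimum. Compared with day 1 the ratio was 0.66 (0.23 to 1.11, adjusted p = 0.015), so the day 2 library was highest against either. Of its tags, 94.4% lay at the site printed above, with 54, 68 and 114 tags. Racgap1, the centralspindlin partner of Kif23, gave 165, 128 and 129 tags, and Ect2, the exchange factor that triggers furrowing, 3 tags or fewer in a library.

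Genes of chromosome structure were also lowest at day 1, with sums of 235, 181 and 211 CPM and a ratio of -0.38 (-0.55 to -0.21) for day 1 over day 0. Mki67, the coat protein of mitotic chromosomes and a marker of cycling cells, gave 239, 156 and 218 tags. It lay below day 0 at day 1, at -0.55 (-0.85 to -0.25, exact test adjusted p = 0.0018), and near it at day 2, at -0.09 (-0.36 to 0.19). Against day 1, the day 2 ratio was 0.46 (0.16 to 0.77, adjusted p = 0.015). Top2a, which untangles sister chromatids, gave 72, 50 and 63 tags, with the same order of days and intervals that all spanned 0: -0.46 (-1.01 to 0.08) at day 1 and -0.14 (-0.66 to 0.36) at day 2 over day 0. A second Top2a cluster, with 39 tags over the libraries, is not in these values. With the clusters of each gene summed, 7 members had intervals below 0 for day 1 over day 0, but not the same 7. Cenpa then spanned 0, and its place was taken by Top2a or Cenpf, the other members with further clusters and a negative ratio there.

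The condensin subunits differed among themselves. Ncapd2 gave 171, 144 and 116 tags, at -0.51 (-0.87 to -0.16, exact test adjusted p = 0.016) for day 2 over day 0. Ncapg gave 47, 24 and 27 tags, at -0.89 (-1.68 to -0.17, exact test adjusted p = 0.063) for day 1 and -0.74 (-1.49 to -0.04, adjusted p = 0.11) for day 2 over day 0. Smc4 gave 129, 108 and 144 tags, at 0.40 (0.03 to 0.77, exact test adjusted p = 0.13) for day 2 over day 1. Smc2, with 4, 4 and 7 tags, was too thinly counted to place.

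Tags from several CATG sites of a gene are counted apart within a library and are not replicates. For 23 of the 33 tested members most tags came from the 3′-most site and for 10 from another, and 17 had 2 or more sites with 10 or more tags. In Ccna2, site 1 held 286, 261 and 266 tags at days 0, 1 and 2, while site 5 held 64, 30 and 40. The lower day 1 value of the gene came mainly from site 5, at -1.02 (-1.70 to -0.38), against -0.07 (-0.31 to 0.18) at site 1. Site 1 held 79.4% of the Ccna2 tags, but its tags with 10 or more copies matched no annotated transcript exactly. That cluster was named by RefSeq accession. In Mki67, site 1 held 217, 138 and 173 tags and site 2 held 18, 9 and 31, both lowest at day 1. In Nusap1, site 7 held 126, 65 and 69 tags and site 11 held 22, 8 and 10, both highest at day 0. In Top2a, site 2 held 27, 15 and 31 tags and site 3 held 40, 28 and 29. Of all 13105 tags of the tested members, 86.8% matched 1 gene exactly, 5.42% several and 7.81% none.

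**Figure D4:**
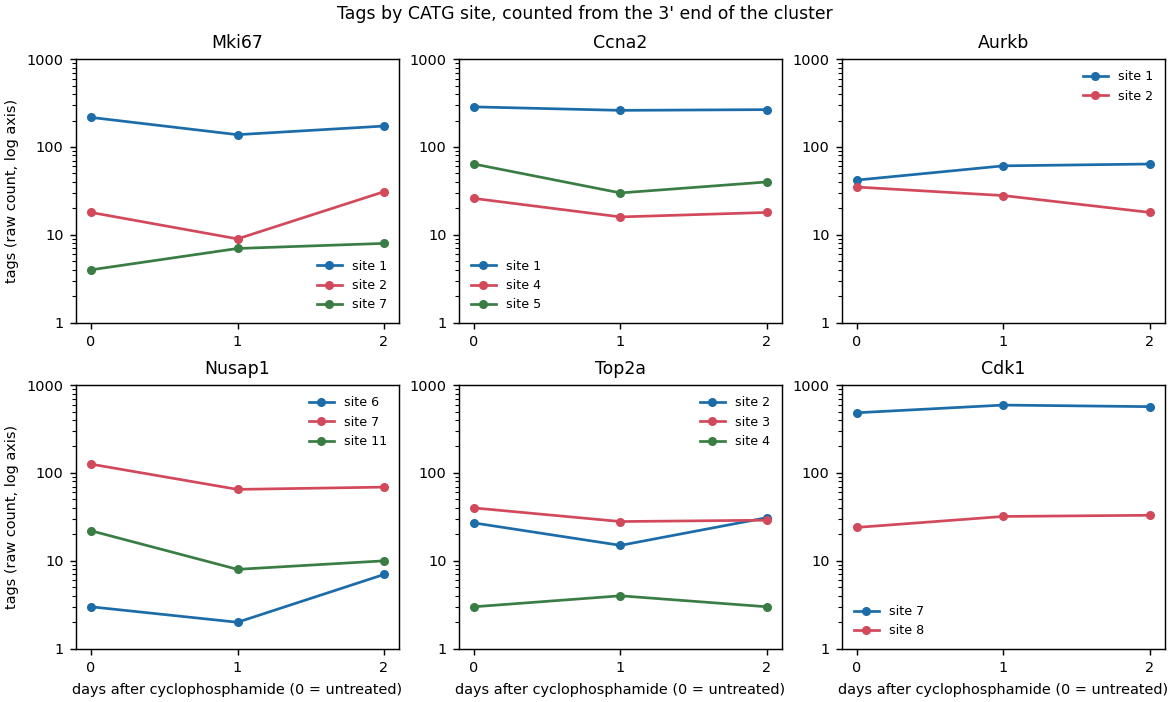
Raw tags (log axis) by day at CATG sites of 6 members, numbered from the 3′ end; each line is 1 site with 10 or more tags. Nusap1 sites 7 and 11 are both highest at day 0, Cdk1 sites 7 and 8 both lowest at day 0, and Aurkb sites 1 and 2 go opposite ways.

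Promoters of mitosis genes are known for the cell cycle homology region, bound by the DREAM and MuvB complexes, beside CCAAT boxes bound by NF-Y. RefSeq windows (GRCm38.p6, 250 bases before to 50 after the start site) were matched for 34 of the 40 members, with 36 windows in all. The letters TTTGAA, on either strand, occurred in 80.6% of the members' windows and in 17.9% of all 32851 windows. CCAAT occurred in 80.6% and 37.4%, and both together in 72.2% and 6.95%. The form TTTAAA occurred in 25% and 13.2%, and the E2F core GCGGGAA in 2.78% and 4.60%. In windows of the further mitosis genes TTTGAA occurred in 37.5%, CCAAT in 60.7% and both in 24.1%. In windows of the DNA replication list TTTGAA occurred in 10.3%, CCAAT in 61.5%, both in 7.69% and GCGGGAA in 41.0%. Matches of different motifs shared bases once in the members' windows, in Cdca8, and a match is a description, not a bound site. TTTGAA started between -40 and +45 in 24 members, counted from the start site, and Nusap1, Tacc3 and Mad2l1 held neither form nor CCAAT. The stretches below were placed to show these letters in 5 members with both kinds, picked among those whose values differed between days. Capitals mark TTTGAA or its reverse complement TTCAAA, and CCAAT or ATTGG.
Cdk1: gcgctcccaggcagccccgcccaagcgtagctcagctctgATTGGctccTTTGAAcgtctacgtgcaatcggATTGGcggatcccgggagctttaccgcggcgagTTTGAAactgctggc
Cdc20: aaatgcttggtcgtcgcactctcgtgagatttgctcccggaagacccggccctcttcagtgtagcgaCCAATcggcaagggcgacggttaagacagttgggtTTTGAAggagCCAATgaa
Ube2c: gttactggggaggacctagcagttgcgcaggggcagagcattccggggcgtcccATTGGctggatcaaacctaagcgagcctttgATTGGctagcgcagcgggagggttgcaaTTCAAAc
Mki67: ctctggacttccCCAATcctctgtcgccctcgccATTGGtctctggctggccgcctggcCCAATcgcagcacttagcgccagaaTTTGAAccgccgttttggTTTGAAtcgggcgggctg
Prc1: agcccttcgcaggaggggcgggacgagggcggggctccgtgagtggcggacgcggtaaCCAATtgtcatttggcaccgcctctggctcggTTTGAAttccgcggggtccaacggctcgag

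The stretches are chr10:69352913-69353032 (minus strand), chr4:118437344-118437463 (minus), chr2:164769787-164769906 (plus), chr7:135716460-135716579 (minus) and chr7:80294356-80294475 (plus), in the order printed. Cdk1 and Cdc20 had intervals above 0 on both treated days and Ube2c at day 1, while Mki67 and Prc1 were lowest at day 1. That all 5 carried both kinds of letters follows from how the stretches were picked. Among other members with intervals off 0, Plk1, Cenpa, Cenpf, Kif4, Ncapd2 and Ncapg had both kinds. Anln had TTTGAA without CCAAT, Bub1 and Ccnb1 had CCAAT without TTTGAA, and Nusap1 had neither. Ccna2, Kif20a, Tpx2 and Smc4 had no window. A link between these letters and the ratios was not tested.

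**Figure D5:**
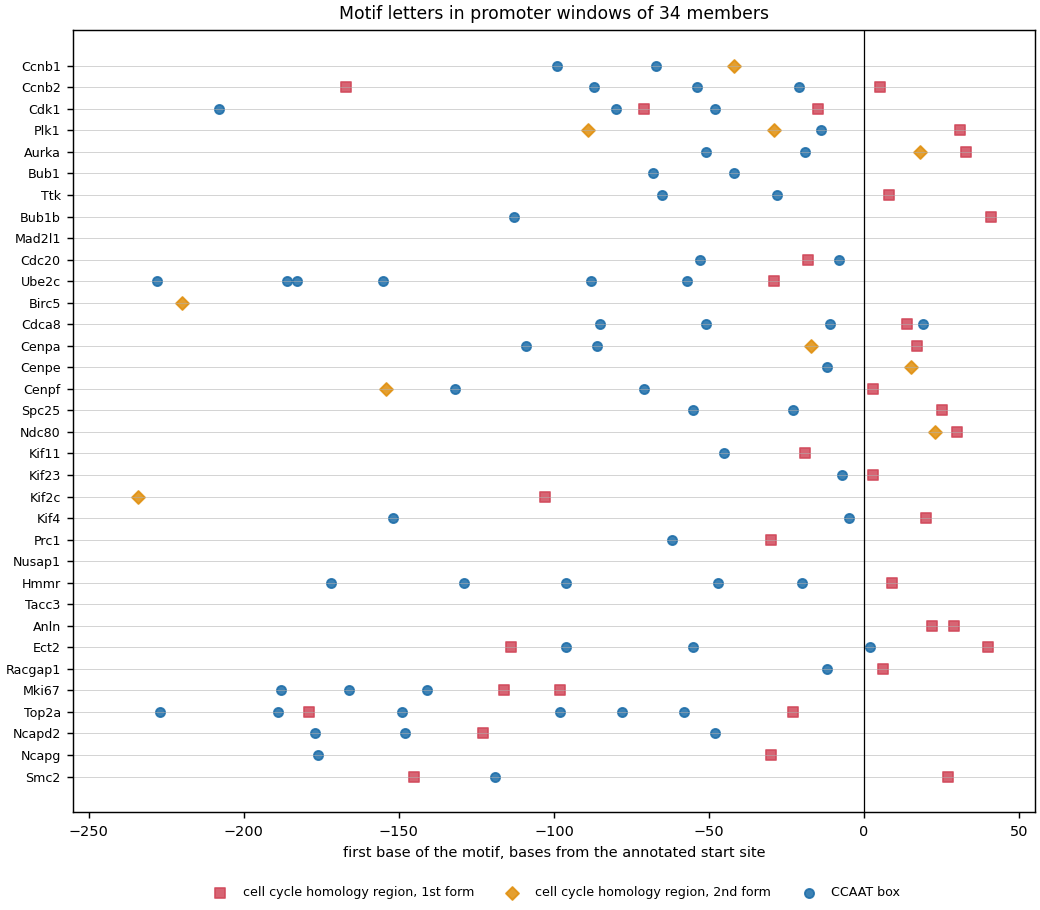
First base of each motif match in bases from the annotated start site (x axis) in the promoter windows of 34 members (rows, by role); squares and diamonds are the 2 forms of the cell cycle homology region and circles CCAAT boxes. Most squares lie from -40 to +45 and most circles before the start site; 1 window is drawn per gene.

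Other mitosis genes, in a list of 126 further symbols of which 101 were tested, were called about as often as all clusters at day 1. For day 1 over day 0, 1 rose and 2 fell (2.97%, against 2.79% of all clusters), with a median of -0.12. Cenpt, a centromere protein, rose to 134 tags at day 1, against 67 at day 0 (1.06, 0.63 to 1.51). Aspm, a spindle-pole protein, fell to 15 tags, against 58 (-1.85, -2.81 to -1.05), and Stag1, a cohesin subunit, fell to 22, against 72 (-1.62, -2.41 to -0.94). Between day 2 and day 0 the counts were 1 and 2 (2.97%, against 6.44%), with a median of -0.10. Gtse1, a microtubule-binding protein of G2 and mitosis, rose to 120 tags, against 45 (1.45, 0.96 to 1.99). Fzr1, the partner of the anaphase-promoting complex after mitosis, fell to 34 tags, against 98 (-1.47, -2.09 to -0.90), and Lmnb1, a nuclear lamin, fell to 32, against 91 (-1.45, -2.09 to -0.86). Between day 2 and day 1 the median was 0.15, and 1 gene of the list (0.990%, against 2.90%), Fzr1, fell, with 34 tags at day 2 against 85 at day 1.

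Genes of earlier cell cycle steps were called for day 2 over day 0 about as often as all clusters. Of 36 tested DNA replication genes, 0 rose or fell for day 1 over day 0, against 2.79% of all clusters, where the median was -0.05. At day 2 over day 0 the median was 0.15, and 1 rose and 1 fell (5.56%, against 6.44%): Rrm2, a subunit of ribonucleotide reductase, had 100 tags at day 2 against 49 at day 0 (1.07, 0.57 to 1.60), and Chaf1a, a histone chaperone of replication, had 29 against 77 (-1.35, -2.03 to -0.73). Of 22 tested genes of G1 to S control, E2f2, a transcription factor of S phase entry, fell to 51 tags at day 2, against 124 at day 0 (-1.23, -1.73 to -0.75), the 1 gene called there (4.55%, against 6.44%). For day 2 over day 1 it was again the 1 gene called (4.55%, against 2.90%), with 119 tags at day 1 (-1.23, -1.74 to -0.76). In that comparison 0 DNA replication genes were called.

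Markers of several skin compartments differed between days. Hair matrix markers, of the cells that divide most in the follicle, summed to 1320, 1346 and 756 CPM at days 0, 1 and 2, and 5 of 10 tested fell at day 2 over day 0. Of the matrix markers, Msx1 was not listed, and Lef1 was listed at day 0 alone, with 2 tags. Inner root sheath markers summed to 42510, 62358 and 24771 CPM and hair shaft markers to 7940, 12717 and 8292 CPM. Basal epidermis markers summed to 6079, 6745 and 7468 CPM, skeletal muscle to 11359, 17562 and 23422 CPM, fibroblast to 2965, 1891 and 3291 CPM and macrophage to 215, 209 and 459 CPM. Erythroid markers summed to 1810, 1619 and 141 CPM. T and B cell markers, at 11.7, 13.8 and 11.4 CPM, were low, with Cd3e, Cd3g, Cd8a and Ms4a1 among those not listed. Among the other lists, Krt81, Krt83 and Krt85 of the hair shaft and Cd68, C1qa and Cd14 of macrophages were not listed on any day. The part of these shifts in the members' values was not tested.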

How the data were processed

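Per the labels' protocols, polyadenylated RNA on oligo(dT) beads was cut with NlaIII, and tags released by MmeI were amplified and sequenced on an Illumina Genome Analyzer. The authors deposited, per UniGene cluster, a raw count of tags, and TPM values per 1e+06 of all tags they kept (per the file headers); the tables hold 45.3%, 47.1% and 46.5% of these at days 0, 1 and 2. Aligner and UniGene build were not given in the sources used here. Since no tag with under 2 copies is listed, absence from a table does not mean 0 tags, and no ratio is printed for such a gene.

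Counts were used as deposited. Clusters were named where 1 gene of GENCODE M21 held at least 80% of matched and 50% of all tags, then by shared tags or RefSeq accession, and Aurkb and Smc2 by description. With 1 library per group edgeR's quasi-likelihood test could not be used. TMM factors (edgeR 4.0.16, R 4.3.3) were 1.03, 0.94 and 1.03. The exact binomial test was two-sided with Benjamini-Hochberg adjustment, intervals are Clopper-Pearson at 95%, and the test was first run on simulated counts. Alternatives included DESeq2 1.42.0 size factors, 3 other scalings, site choices and pseudocounts.

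Members, lists and tests were chosen with earlier results of these data known. Tags are given for members with 60 or more over the libraries or an interval that excludes 0. Ratios are given for the latter and for Mki67, Top2a, Ccnb1, Cdk1 and Plk1. Outside the members, called genes of the 3 lists and the called marker Shh are named.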

Additional observations from a re-analysis of the deposited data

How the results depend on the processing

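No paired analysis was possible because each group has 1 library. Single-member ratios held in 552 of the alternatives. Held means an interval on the same side where the main one excluded 0, or a value within the main one where it spanned 0. Values of the latter kind could still change sign or come to exclude 0. In 19 the direction stayed but the interval came to span 0. In 3 the value left a main interval that had spanned 0, and 2 reversed. Both reversals were Cdk1 at the 3′-most site, at -0.24 for day 1 and -0.65 for day 2 over day 0, values of a second Cdk1 cluster of 24 tags. Scaling to tags assigned to a gene moved the median of all clusters to -0.15 for day 1 over day 0 and to 0.12 for day 2 over day 1. That scaling gave a members' median of -0.31 and 1 member called (Nusap1, lower) for day 1 over day 0. Relative to all clusters, the members' median for day 1 over day 0 lay between -0.20 and -0.12 in the alternatives run. Over all clusters, 199 higher and 187 lower calls for day 1 over day 0 became 156 and 265 with all kept tags, 128 and 338 with assigned tags, and 176 and 231 outside hair and muscle genes. For day 2 over day 0, 0 members were called at the 3′-most site, since the Anln tag lies at another. Further mitosis genes called for day 2 over day 1 numbered 2 with all kept or assigned tags and 0 at the main site. Over all clusters the higher and lower calls there were 347 and 106, 371 and 100, and 255 and 139. For day 2 over day 0 the further mitosis genes called numbered 5 outside hair and muscle genes and 5 at the main site. The higher and lower calls beside them were 528 and 364 of 13812 clusters, and 479 and 509 of 13315. With edgeR at an assumed variation of 0.2, a setting that also took an adjusted p of 0.05 and no fold minimum, 29, 241 and 90 clusters were called for day 1 over day 0, day 2 over day 0 and day 2 over day 1, with 0 further mitosis genes in each and 0 members for day 2 over day 0. With no fold minimum these were 1510, 2086 and 1353 of 13812 clusters and 11, 10 and 11 of 101 further mitosis genes. Of 33 members, 3 were called for day 1 (Cdk1, Plk1, Nusap1) and 3 for day 2 (Anln, Cdc20, Nusap1) over day 0. In both comparisons that was a smaller share than of all clusters. Some sums changed sign between scalings: spindle proteins for day 2 over day 0; the checkpoint group, cyclins and their kinase and further mitosis genes for day 2 over day 1; DNA replication, G1 to S and hair matrix for day 1 over day 0; and T and B cell markers for day 2 over day 0. For day 1 over day 0, the intervals of the cyclins (in 3 scalings), mitotic kinases (in 3) and checkpoint group (in 1) came to span 0. Depth limits the members with few tags: the Smc2 interval for day 1 over day 0 ran from -2.36 to 2.49.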
